A study of Mus musculus with 16 samples.

Results

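Leukemia stem cells from mice with chronic myeloid leukemia (CML) were compared after treatment with metoclopramide (MCP) or vehicle, in 6 of the 16 libraries of the series, 3 per group. C57BL/6 LSK cells, the lineage-negative, Sca-1-positive and c-Kit-positive marrow fraction that holds blood stem cells, received the BCR-ABL1-GFP construct by 2 rounds of transduction and were given to syngeneic mice that had not been irradiated. Once CML had developed, the mice received MCP at 10 mg/kg or vehicle, and leukemia stem cells (LSCs) were sorted from their marrow. All 6 libraries carry the same strain, wild-type genotype and an age of 8 weeks in the labels, and all recipients kept their own marrow. The source field of these samples reads LSK and the title LSC, the sorting gate is not given in the sources used here, and the labels do not say whether the replicates are separate mice, so p-values may measure technical spread only. The genes described are chiefly the 9387 of 36930 listed features that reached 5 RPKM (reads scaled by gene length and by mapped reads) or more in all 3 libraries of a group: 8302 did so in both groups, 989 in vehicle only and 96 in MCP only. Gene lists were counted over all tested genes, so a few members named below, such as Ms4a2, Ly86 and Gimap3, lie outside these.

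MCP blocks dopamine receptors and is used against nausea. BCR-ABL1 is the constitutively active tyrosine kinase that drives CML, and LSCs are the small, therapy-resistant fraction that maintains the disease by self-renewal. As these cells differentiate along the myeloid path, they switch from stem cell transcription factors to the granule proteins of promyelocytes, while a side branch yields mast cells and basophils with proteases of their own. The title of the series links the drug to CD93, a surface receptor of stem and progenitor cells, and to self-renewal, so the comparison asks which transcripts differ after treatment.

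With MCP, 73 genes rose and 252 fell (limma, adjusted p below 0.05) among the 14005 genes tested, or 0.521% and 1.8%. Among the 9387 genes at 5 RPKM or more, 70 rose and 199 fell, or 0.746% and 2.12%. Of these 269 calls, 219 belonged to genes at 5 RPKM or more in all 6 libraries, 49 to genes at that level in vehicle only and 1 to a gene at that level in MCP only. The genes that rose were mostly small shifts in abundant transcripts: 61 of the 70 rose by less than 1 on the log2 scale, and their median level was 166 RPKM. Of all tested genes 2.32% passed in either direction, and 2.87% of the 9387. The genes that fell had a median level of 33.0 RPKM, and 130 of the 199 changed by less than 1. Among the 1160 tested genes that averaged 100 RPKM or more, 42 rose and 37 fell. Groups that do not overlap were far more common than calls: with called genes counted in, 30.5% of tested genes had them (4.91% higher with MCP and 25.6% lower), and 35.1% of the 9387 (6.01% and 29.1%). Without vehicle library 1, 2 or 3 the number of genes that passed was 46, 79 and 25, against 325 with all libraries and 303 to 406 without an MCP library.

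Values of the libraries moved with the groups and touch every result. The vehicle libraries were deeper, at an estimated 12.7 to 18.7 M reads against 4.1 to 8.5 M with MCP, and listed 19554 to 20014 features above the lowest value of 0.001 against 15587 to 16447. Protein-coding genes took 58.1% to 59.7% of the summed values with vehicle and 51.0% to 53.8% with MCP, and the mitochondrial ribosomal RNAs Rnr1 and Rnr2 11.3% to 15.7% and 16.9% to 17.9%. Across all tested genes the median log2 difference was −0.18, with 3948 genes higher and 10057 lower, and it was −0.00 after quantile normalization, so each difference is to be read against that median. The median also moved with transcript length: it was −0.00 in the bin of genes with the shortest exons in sum (38 to 982 bases), where 29 genes rose and 45 fell, and −0.29 in the longest (6808 bases and more), where 0 rose and 45 fell. With that trend removed, a check chosen after the data were seen, 108 genes rose (0.869%) and 97 fell (0.78%) of 12432 with a length, and 147 of the 300 earlier calls among them passed again. After quantile normalization 109 rose (0.778%) and 151 fell (1.08%). Of all calls, 22.5% were rises as deposited, 41.9% after quantile normalization, 36.3% with protein-coding totals made equal and 52.7% with the length trend removed. The part of depth and length in the single results was not tested, and calls that ended with the length trend removed are given with that value beside the genes described.

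**Figure D1:**
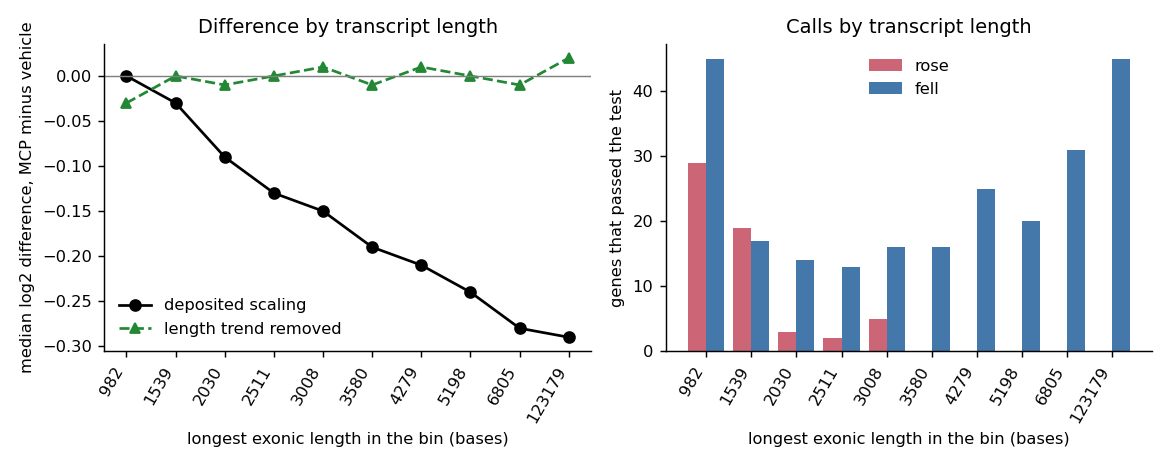
Left, median log2 difference (MCP minus vehicle) in 10 bins of exonic length, labelled by the longest gene of each bin, as deposited (circles) and with the length trend removed (triangles); right, genes that passed in each bin. The median goes from −0.00 to −0.29 with length, and the genes that rose lie in the shortest 5 bins.

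RNA of the stem cell sorting markers was present in both groups. Kit, the c-Kit receptor, was at 68.4, 75.8 and 77.5 RPKM with vehicle and 62.6, 74.3 and 62.4 with MCP, and did not pass the test (adjusted p = 0.394). Ly6a, which encodes Sca-1, was low and uneven, at 14.6 to 23.9 with vehicle and 8.43 to 23.3 with MCP, with overlapping groups. Of the markers of other cells, 2 of 10 B cell, 3 of 10 T and NK cell, 3 of 7 stromal and 5 of 7 endothelial markers were expressed highly enough to be tested, against 9 of 11 macrophage, 10 of 10 erythroid and 8 of 8 megakaryocyte markers. The erythroid markers summed to 512 to 565 RPKM with vehicle and 486 to 514 with MCP, and the macrophage markers to 34.2 to 39.1 and 22.8 to 27.3. Fewer tested markers did not mean lower sums. T and NK cell markers summed to 77.1 to 88.1 and 85.6 to 131.5, and endothelial markers to 69.9 to 81.9 and 55.7 to 61.35. For B cell markers, of which Ighm fell, the sums were 28.0 to 35.0 and 10.1 to 17.15. Stromal markers summed to 11.55 to 12.9 and 5.7 to 8.1. The 8 mast cell and basophil markers were all tested and summed to 348 to 382 RPKM with vehicle and 88.0 to 98.6 with MCP. The 12 neutrophil markers, of which 7 were tested and 2 were at the lowest value in all libraries, summed to 187 to 206 and 255 to 367. S100a8 and S100a9, described below, made up most of each sum. Of the 7 tested, 3 were higher with MCP and 4 lower (median log2 difference −0.03), and 1, S100a8, rose.

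Genes that rose together were those of azurophil granules, the first granules that neutrophil precursors make. Of 19 such granule and promyelocyte genes, a list chosen after the values were seen, 7 rose and 0 fell (Elane, Ctsg, Prtn3, Mpo, Ms4a3, Clec12a and Hp), with a median log2 difference of 0.31 as deposited, 0.40 after quantile normalization and 0.46 with the length trend removed. Elane, which encodes neutrophil elastase (chromosome 10, 79886247 to 79888215, plus strand), was at 480.3, 524 and 463 RPKM with vehicle and 868, 929 and 900.2 with MCP. Every MCP library was above every vehicle library, the log2 difference was 0.88 (SE 0.07, adjusted p = 0.00286, limma), and it passed whichever library was left out. Prtn3, proteinase 3 and a neighbour of Elane on chromosome 10, was at 283, 309 and 284 and at 459.5, 443 and 494 (log2 difference 0.67, SE 0.07, adjusted p = 0.00979). Ctsg, cathepsin G, was at 347, 367 and 346 and at 541, 550.0 and 519.7 (0.60, SE 0.06, adjusted p = 0.00836). The groups of both genes lay apart, and with 1 library left out their highest adjusted p-values were 0.0671 and 0.0663. Mpo, myeloperoxidase, was the most abundant of them, at 1929, 2050.0 and 1916 against 2764, 2666 and 2829 (0.49, SE 0.06, adjusted p = 0.0200, at most 0.113 with a library left out).

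The rise did not extend to every gene of that program. Ctsc, the protease that activates the granule proteases, was at 25.3, 27.8 and 31.1 with vehicle and 12.8, 19 and 13.7 with MCP, below in each library but short of the threshold (log2 difference −0.86, adjusted p = 0.0536). Lyz2, lysozyme, had overlapping groups (24.7 to 36.3 against 11.6 to 28.6). The transcription factors of granulocyte commitment did not pass either: Cebpa had a log2 difference of 0.07 (SE 0.19), Gfi1 of 0.07 (SE 0.22) and Cebpe of 0.19 (SE 0.28). Of the later calprotectin genes, S100a8 rose from 69.8, 83.6 and 63.2 to 145, 105 and 129 (0.79, SE 0.15, adjusted p = 0.0430) while its partner S100a9, with a like difference and groups apart, lay at 67.7 to 76.5 and at 104 to 162 and missed the threshold (0.78, adjusted p = 0.0615). Trem1, an activating receptor of myeloid cells, rose from 1.45, 1.98 and 2.50 to 5.93, 8.45 and 5.89 (1.38, SE 0.25, adjusted p = 0.0419). Whether neutrophil precursors in the sort had a part in these rises was not tested.

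**Figure D2:**
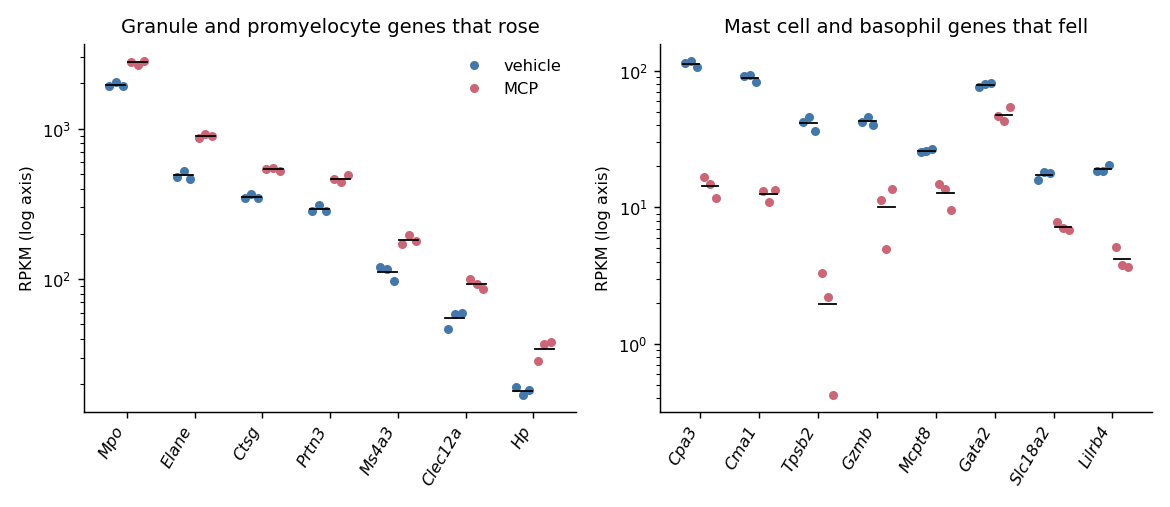
RPKM on a log axis in each library (points) with the mean of 3 (black line) for 7 granule genes that rose and 8 mast cell and basophil genes that fell. In all 15 genes the 3 MCP libraries lie on the same side of the 3 vehicle libraries.

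Large falls were seen in genes of mast cells and basophils. Of the 8 markers of these cells 6 fell (Cma1, Cpa3, Tpsb2, Ms4a2, Gata2 and Mcpt8) and the remaining 2 were lower, with a median log2 difference of −2.02. Of 27 tested genes of a wider list, chosen after the values were seen, 15 fell and 0 rose. As deposited 26 were lower and 1 was higher, with groups apart. With the length trend removed 14 fell and 1 rose. Cpa3, the mast cell carboxypeptidase (chromosome 3, 20215620 to 20242181, minus strand), was at 115, 119.5 and 107 RPKM with vehicle and 16.8, 15.0 and 11.7 with MCP. The log2 difference was −2.90 (SE 0.14, adjusted p = 0.000330, limma), and the highest adjusted p with a library left out was 0.00756. Cma1, a chymase, was at 91.5, 94.1 and 83.7 and at 13.3, 10.9 and 13.4 (−2.75, SE 0.12, adjusted p = 0.000206, at most 0.00750). Both genes lay far apart between the groups, with no MCP library above 17 RPKM. Tpsb2, a tryptase with a close paralog that could share reads, was at 42.6, 46.0 and 36.5 and at 3.29, 2.18 and 0.421 (−3.98, SE 0.39, adjusted p = 0.00763).

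Genes of other functions in these cells fell with the proteases. Gata2, the transcription factor shared by stem cells and mast cells, went from 76.6, 80.1 and 81.5 to 46.6, 42.9 and 54.4, a smaller fall than that of the proteases (−0.72, SE 0.10, adjusted p = 0.0247, and 0.0608 with the length trend removed). Slc18a2, the vesicular transporter that loads histamine and other monoamines, was at 15.8, 18.2 and 17.8 and at 7.83, 7.09 and 6.79 (−1.15, SE 0.15, adjusted p = 0.0200). Lilrb4, an inhibitory receptor with the near-identical copy Gp49a, went from 18.4, 18.5 and 20.6 to 5.16, 3.77 and 3.67 (−1.97, SE 0.18, adjusted p = 0.00633). Cd200r3, an activating receptor of basophils and mast cells, was at 5.90, 5.79 and 6.51 with vehicle and listed at 0.001 in all 3 MCP libraries (adjusted p = 0.00329), so no fold is given. Cyp11a1, a steroidogenic enzyme also made by mast cells, was at 11.5, 14.5 and 13.7 and at 4.03, 4.01 and 1.44 (−1.85, SE 0.31, adjusted p = 0.0356). Fcer1a, part of the IgE receptor, was at 5.79 to 9.87 against 0.636 to 3.95 and did not pass (adjusted p = 0.0796). In bulk libraries, fewer cells of a type and less RNA per cell cannot be told apart.

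Ctsg and 4 genes that fell lie in the same gene cluster. This serine protease cluster on chromosome 14 (55941451 to 56262260) holds 15 coding genes, of which 5 were tested. Cma1, Mcpt4, Mcpt8 and Gzmb fell, and Ctsg, which lies between Mcpt8 and the granzyme genes, rose. Mcpt4, a chymase, was at 8.34, 8.70 and 8.58 RPKM with vehicle and 2.07, 3.29 and 1.42 with MCP (log2 difference −1.59, adjusted p = 0.0322). Mcpt8, the basophil protease, was at 25.4, 26.1 and 26.9 and at 14.9, 13.8 and 9.64 (−1.0, adjusted p = 0.0372). Gzmb, granzyme B, was at 42.6, 46.1 and 40.5 and at 11.4, 4.92 and 13.6 (−2.10, adjusted p = 0.0269). In each of the 5 genes the groups lay apart. The other 10 genes, among them Mcpt1, Mcpt2 and Gzmc, were below 1 RPKM in every library. The nearest neighbours Mcpt8 and Ctsg therefore moved in opposite directions in the same libraries.

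**Figure D3:**
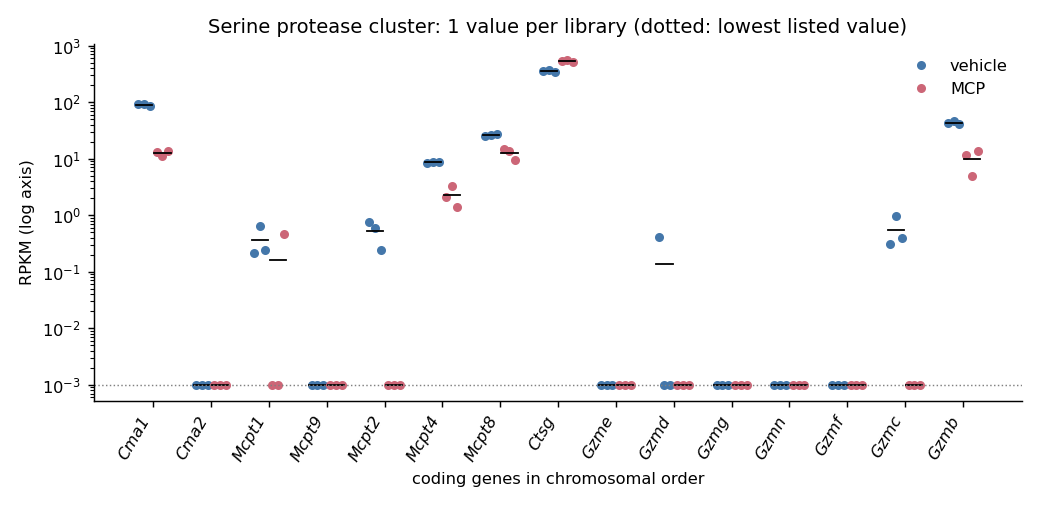
RPKM on a log axis of the 15 coding genes of the chromosome 14 serine protease cluster, in chromosomal order, with 1 point per library and the mean of 3 as a black line; the dotted line marks the lowest listed value, 0.001. Ctsg is higher with MCP while Cma1, Mcpt4, Mcpt8 and Gzmb are lower.

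The sequences before the starts of these genes are shown because the granule proteases rose together while the mast cell proteases fell. The windows hold the 250 bases before the start in RefSeq on GRCm38.p6, 5′ to 3′ on the gene's strand, and distances count from that start. RefSeq starts can differ from the GENCODE M21 positions printed for genes elsewhere. Those put the start of Elane at 79886247, inside its window, and that of Prtn3 at 79874476, before its window. Capitals mark matches, on either strand, to GAGGAA (a core of sites bound by the myeloid factor PU.1), GATAA (bound by GATA factors), TGTGGT (bound by RUNX factors) or TTGCNNAA (bound by C/EBP factors). No matches overlap in these windows.
Elane (chr10:79886062-79886311, plus strand): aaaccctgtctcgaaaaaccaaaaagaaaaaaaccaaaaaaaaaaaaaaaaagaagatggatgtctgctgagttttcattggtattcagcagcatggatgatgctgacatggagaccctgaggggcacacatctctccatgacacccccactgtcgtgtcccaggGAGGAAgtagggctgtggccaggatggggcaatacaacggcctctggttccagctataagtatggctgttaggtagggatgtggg
Prtn3 (chr10:79879417-79879666, plus strand): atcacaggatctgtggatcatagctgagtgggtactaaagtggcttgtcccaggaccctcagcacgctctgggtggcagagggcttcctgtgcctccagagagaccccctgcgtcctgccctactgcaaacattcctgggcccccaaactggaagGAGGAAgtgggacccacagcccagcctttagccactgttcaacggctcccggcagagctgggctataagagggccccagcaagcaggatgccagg
Ctsg (chr14:56102575-56102824, minus strand): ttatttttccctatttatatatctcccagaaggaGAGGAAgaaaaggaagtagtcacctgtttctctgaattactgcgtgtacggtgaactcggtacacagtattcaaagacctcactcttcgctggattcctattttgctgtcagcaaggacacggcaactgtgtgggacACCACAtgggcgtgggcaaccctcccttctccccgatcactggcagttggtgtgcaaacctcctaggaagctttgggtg
Cpa3 (chr3:20242182-20242431, minus strand): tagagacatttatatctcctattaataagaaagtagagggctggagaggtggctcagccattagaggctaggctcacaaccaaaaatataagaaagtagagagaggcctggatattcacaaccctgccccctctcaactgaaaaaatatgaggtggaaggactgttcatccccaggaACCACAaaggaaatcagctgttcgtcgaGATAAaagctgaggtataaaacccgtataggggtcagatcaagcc
Cma1 (chr14:55944676-55944925, minus strand): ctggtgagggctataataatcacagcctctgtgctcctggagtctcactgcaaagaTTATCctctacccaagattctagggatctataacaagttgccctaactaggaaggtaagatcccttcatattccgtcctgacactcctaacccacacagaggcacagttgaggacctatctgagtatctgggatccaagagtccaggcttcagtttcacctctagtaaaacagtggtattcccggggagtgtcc
Mcpt4 (chr14:56062311-56062560, minus strand): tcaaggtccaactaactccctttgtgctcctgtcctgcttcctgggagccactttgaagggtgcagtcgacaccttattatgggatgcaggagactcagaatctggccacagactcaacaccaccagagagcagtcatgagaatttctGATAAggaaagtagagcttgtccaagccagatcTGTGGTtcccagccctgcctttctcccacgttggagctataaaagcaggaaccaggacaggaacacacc
GAGGAA stands on the gene's strand in Elane, Prtn3 and Ctsg, beginning 85, 95 and 216 bases before the start. GATAA lies 45 and 102 bases before the start of Cpa3 and Mcpt4 on the gene's strand, and 194 bases before that of Cma1 on the other strand. Among all 32851 windows, 23.3% held GAGGAA, 22.6% GATAA, 14% TGTGGT and 9.6% TTGCNNAA. Of the 7 granule genes that rose, 6 had a window and 5 of them held GAGGAA, 1 GATAA, 2 TGTGGT and 1 TTGCNNAA. Of the mast cell and basophil genes that fell, 12 had a window, and 4 held GAGGAA, 6 GATAA, 4 TGTGGT and 2 TTGCNNAA. These matches describe letters in a window and do not show that a factor binds there.

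Genes that mark and maintain stem cells were lower with MCP. As deposited all 13 HSC and LSK markers were lower and 5 fell (Slamf1, Hlf, Meis1, Cd34 and Gata2), beside 10057 of 14005 tested genes lower. Their median log2 difference was −0.93 as deposited, −0.70 after quantile normalization and −0.76 with the length trend removed, under which 3 passed. Kit, one of the 13, had a difference of −0.15 as deposited and 0.10 with the length trend removed. Of 31 stem and progenitor regulators, a list chosen after the values were seen, 9 fell and 0 rose, and 5 fell with the length trend removed. Meis1, a homeobox factor of stem cells and leukemia (chromosome 11, 18879817 to 19018985), was at 44.1, 50.8 and 51.6 RPKM with vehicle and 24.4, 22.6 and 21.3 with MCP, lower by limma (log2 difference −1.07, SE 0.11, adjusted p = 0.00903). The groups lay apart, and the call held with the length trend removed (adjusted p = 0.0201). Mycn, which acts with Myc in stem cell growth, was at 24.6, 30.4 and 30.4 and at 6.88, 9.66 and 9.19 (−1.63, SE 0.17, adjusted p = 0.00979). Hlf, a factor of quiescent stem cells, was at 20.3, 22.3 and 17.2 and at 7.49, 7.36 and 7.87 (−1.28, SE 0.15, adjusted p = 0.0156). For these 3 genes the highest adjusted p with a library left out lay between 0.0681 and 0.102.

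Further regulators fell as well. Sox4, which supports leukemic growth, went from 37.2, 36.1 and 35.5 to 16.3, 20.3 and 22.1 (adjusted p = 0.0279, and 0.0779 with the length trend removed). Msi2, an RNA-binding protein of stem cells and CML, went from 122.8, 119 and 156 to 90.5, 73.8 and 77.3 (adjusted p = 0.0418, and 0.158 with the trend removed). Tcf7, a factor of WNT signalling, fell, lying at 5.12 to 7 with vehicle and 0.836 to 1.62 with MCP (log2 difference −1.68, adjusted p = 0.0260). Mecom and Hoxa9, both tied to stem cell identity, were lower in each MCP library but did not pass (log2 differences −1.38 and −1.11, adjusted p = 0.0518 and 0.0864). Gata1, the erythroid and megakaryocytic factor, had overlapping groups and a log2 difference of 0.22 (SE 0.14).

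Among genes for surface and secreted proteins of stem and progenitor cells, 12 of 26 fell and 0 rose, again in a list chosen after the values were seen, and 6 fell with the length trend removed. Angpt1, a ligand of the Tie2 receptor made by stem cells (chromosome 15, 42424723 to 42676977), was at 66.0, 71.8 and 70.9 with vehicle and 31.4, 32.4 and 30.9 with MCP. Its log2 difference of −1.12 (SE 0.08, adjusted p = 0.00286) passed whichever library was left out and with the length trend removed (−0.89, adjusted p = 0.00464). Slamf1, the CD150 marker of stem cells, was at 8.55, 11.7 and 8.80 and at 3.04, 1.70 and 2.44 (−1.66, SE 0.24, adjusted p = 0.0251). Gpr56, an adhesion receptor, fell from 188, 177 and 176 to 116, 118 and 128 (−0.58, SE 0.07, adjusted p = 0.0175, and 0.0628 with the length trend removed). Itga2b, the platelet and progenitor integrin CD41, was at 34.4 to 35.8 and at 18.4 to 20.4 (−0.80, SE 0.10, adjusted p = 0.0200), and Igfbp4, a binding protein of insulin-like growth factors, at 197 to 211 and 127 to 146 (−0.60, SE 0.08, adjusted p = 0.0192). Cd34, a sialomucin of progenitors, fell, lying at 120.1 to 138 and at 76.8 to 95.8 (adjusted p = 0.0371, and 0.0968 with the trend removed). The 8 megakaryocyte markers, Itga2b among them, were all lower and summed to 89.5 to 109.5 with vehicle and 45.9 to 55.1 with MCP; Itga2b and Vwf, von Willebrand factor, fell, and Vwf lost its call with the length trend removed (adjusted p = 0.0779). The part of such cells in the stem cell falls was not tested. Cd93 itself was at 19.7, 24.9 and 24.4 and at 15.6, 21.4 and 17.2, with overlapping groups (adjusted p = 0.264). Of the 16 tested genes for its family and partners, Msn and Rdx, which tie membrane proteins to actin, fell, and neither passed with the length trend removed (adjusted p = 0.053 and 0.15).

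**Figure D4:**
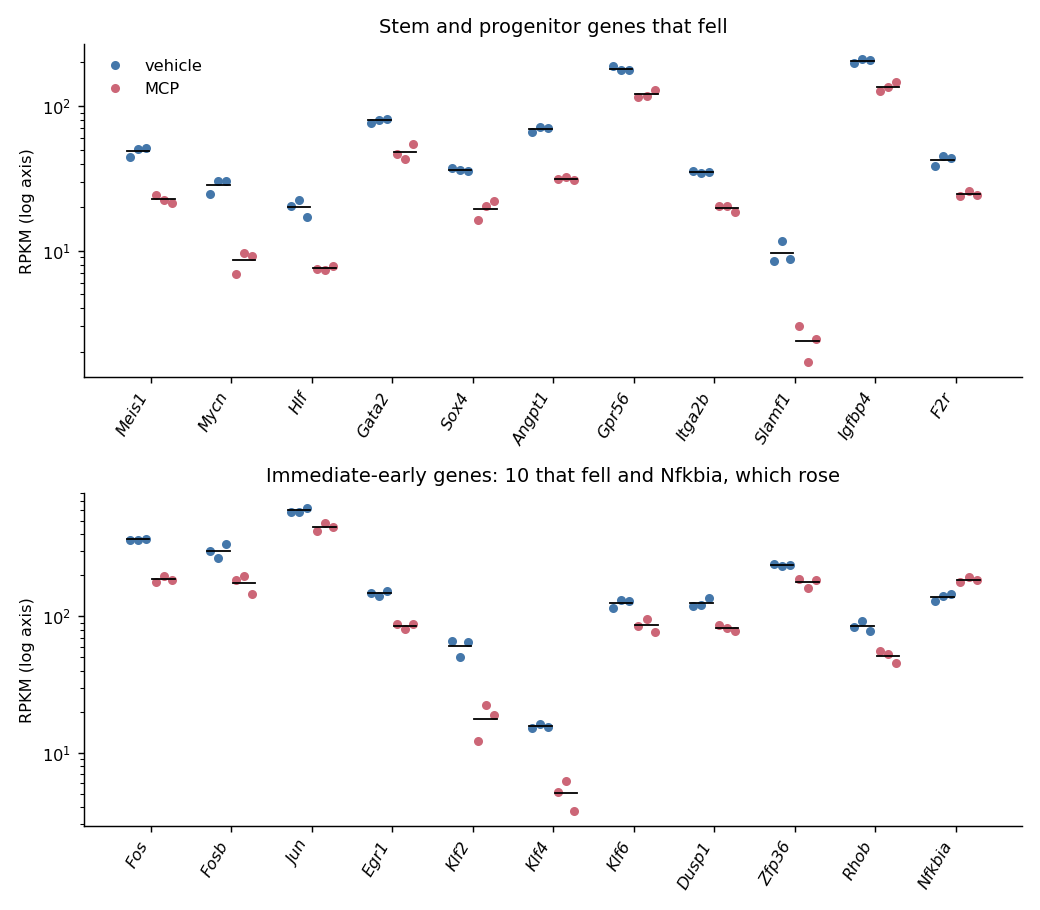
RPKM on a log axis in each library (points) with the mean of 3 (black line) for 11 stem and progenitor genes that fell (top), and 10 immediate-early genes that fell with Nfkbia, which rose (bottom). In each gene the groups do not overlap.

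Immediate-early genes, which respond within minutes to growth factors, adhesion and handling, were lower as a group. Of 39 tested, in a list chosen after the values were seen, 13 fell and 1 rose (9 and 1 after quantile normalization, 6 and 1 with the length trend removed), with a median log2 difference of −0.40 as deposited and −0.25 after quantile normalization or with the length trend removed. Fos, an AP-1 subunit (chromosome 12, 85473890 to 85477273, plus strand), was at 365, 365 and 372 RPKM with vehicle and 179, 197 and 184 with MCP. The vehicle libraries differed by less than 10 RPKM, and the log2 difference of −0.97 (SE 0.06, adjusted p = 0.00117, limma) passed whichever library was left out and with the length trend removed (adjusted p = 0.00196). Fosb fell from 302, 268 and 338 to 185, 197 and 147 (−0.78, SE 0.13, adjusted p = 0.0345), and Jun from 587, 585 and 621 to 424, 487 and 451 (−0.40, SE 0.07, adjusted p = 0.0397). Both lost their calls with the length trend removed (adjusted p = 0.0890 and 0.198). Egr1, a zinc finger factor of stem cell quiescence, was at 147, 142 and 154 and at 88.4, 80.6 and 87.8 (−0.78, SE 0.07, adjusted p = 0.00683) and kept its call (adjusted p = 0.0201). Klf2 was at 65.6, 50.4 and 64.8 and at 12.2, 22.4 and 18.9 (−1.73, SE 0.22, adjusted p = 0.0200), and Klf4 at 15.2, 16.2 and 15.5 and at 5.20, 6.22 and 3.73 (−1.48, SE 0.20, adjusted p = 0.0222). Dusp1, a phosphatase of MAP kinases, fell by 0.60 on the log2 scale and Rhob, a small GTPase, by 0.71 (adjusted p = 0.0238 and 0.0266). Myc, a driver of cell growth, fell, lying at 196 to 211 and at 129 to 164 (adjusted p = 0.0466, and 0.124 with the length trend removed).

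Nfkbia, the inhibitor of NF-kappa-B, moved the other way. It was at 129, 141 and 147 with vehicle and 178, 193 and 186 with MCP (0.42, SE 0.08, adjusted p = 0.0412), while Nfkbiz, a nuclear member of that family, fell from 38.3, 35.0 and 39.7 to 19.6, 25.4 and 21.8 (−0.74, SE 0.13, adjusted p = 0.0365, and 0.112 with the length trend removed). The heat shock genes Hspa1a and Hspa1b, near-identical copies whose reads may be shared, rose too. Hspa1a was at 44.2, 43.1 and 44.3 and at 67.7, 74.0 and 69.9 (0.67, SE 0.08, adjusted p = 0.0146), and Hspa1b at 49.2, 49.1 and 46.4 and at 73.5, 89.7 and 76.2 (0.71, SE 0.10, adjusted p = 0.0238). They were the 2 of 42 chaperone genes that passed, and the median of that list was 0.02.

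Genes of antigen presentation by MHC class II were lower in all 11 members tested, of which 4 fell (Cd74, H2-DMa, H2-Eb1 and H2-Ob), in a list chosen after the values were seen. After quantile normalization 1 of them passed, and likewise 1 with the length trend removed, in both cases Cd74. Cd74, the invariant chain, was at 55.6, 54.9 and 48.9 RPKM with vehicle and 25.0, 18.0 and 18.1 with MCP (log2 difference −1.35, SE 0.15, adjusted p = 0.0114). H2-Eb1, a class II beta chain, was at 17.8, 18.8 and 15.1 and at 8.32, 3.68 and 6.16 (−1.42, SE 0.27, adjusted p = 0.0440, and 0.0554 with the length trend removed). In both genes the groups lay apart. Of the 24 monocyte and dendritic fate genes, 4 fell (Cd74, Klf4, Csf1r and Ly86) and Ms4a3, a gene of granulocyte and monocyte precursors, rose from 121, 117 and 96.9 to 171, 197 and 178 (0.71, SE 0.10, adjusted p = 0.0251). Csf1r, the receptor of macrophage growth factor, fell from 5.55, 5.78 and 5.08 to 1.66, 0.602 and 1.2 (adjusted p = 0.0322, and 0.0554 with the trend removed). The 8 dendritic cell markers, 5 of them tested, summed to 95.1 to 102 and 61.3 to 86.6, and the macrophage sums are given above. The part of such cells in the falls was not tested.

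Small shifts ran through the short, abundant transcripts of the ribosome and the respiratory chain. Of 81 cytosolic ribosomal protein genes 80 were higher with MCP and 9 rose, with a median log2 difference of 0.27 as deposited, 0.23 after quantile normalization and 0.27 with the length trend removed. Rpl35a, of the large subunit, was at 146, 166 and 138 RPKM with vehicle and 221, 219.8 and 221 with MCP (0.56, SE 0.08, adjusted p = 0.0251). Rps24, of the small subunit, was at 663, 722 and 634 and at 910.3, 840.3 and 874 (0.38, SE 0.07, adjusted p = 0.0440). The groups of both genes lay apart, and the many processed pseudogenes of this family could share reads with them. Of 76 mitochondrial ribosomal protein genes 2 rose, Mrpl52 and Mrpl46, the latter not with the length trend removed (adjusted p = 0.0625). Complex I, which passes electrons from NADH into the respiratory chain, had 5 of 36 nuclear-encoded subunits that rose and 31 that were higher (median 0.20). Among them Ndufa5 went from 169, 186 and 167 to 231, 241 and 243 (0.45, SE 0.07, adjusted p = 0.0281), and Ndufb9 from 166, 163 and 148 to 213, 235 and 231 (0.50, SE 0.08, adjusted p = 0.0264). Of 42 other subunits of the chain and of ATP synthase, Cox6c, Cox7a2 and Atp5l rose, and the last 2 did not pass with the length trend removed (adjusted p = 0.0554 for each). The 13 mitochondrially encoded genes had a median of 0.23 as deposited that turned to −0.07 after quantile normalization, and ATP8, one of the 2 that rose, turned from 0.35 to −0.11. ND3, the other, kept its call (0.42 as deposited and 0.39 after quantile normalization, limma adjusted p = 0.0270). These families are short (median exonic length 977 bases for cytosolic ribosomal and complex I genes, against 3008 over all tested genes), and were chosen after the values were seen.

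Other rises touched redox and RNA genes. Gstm1, a glutathione transferase, was at 45.0, 48.0 and 43.6 and at 68.8, 70.0 and 77.1 (0.65, SE 0.09, adjusted p = 0.0222). Blvrb, which reduces biliverdin and flavins, was at 142, 145 and 138 and at 197, 190.2 and 204 (0.47, SE 0.06, adjusted p = 0.0222), and Bola3, needed to load iron-sulfur clusters in mitochondria, at 205, 214 and 183 and at 295, 290.1 and 293 (0.55, SE 0.07, adjusted p = 0.0222). Taldo1, transaldolase of the pentose phosphate pathway, rose from 187, 194 and 178 to 235, 248 and 229 (0.35, SE 0.07, adjusted p = 0.0466), and was the single gene of 16 in its list to do so. Fkbp11, a folding enzyme of the secretory pathway, rose from 29.7, 34.8 and 31.1 to 61.6, 51.5 and 53.4 (0.78, SE 0.11, adjusted p = 0.0243). All 5 genes kept their calls after quantile normalization and with the length trend removed. Snhg1, a host of small nucleolar RNAs, rose from 205, 249.7 and 259.5 to 432, 391 and 362 (0.73, SE 0.11, adjusted p = 0.0260). Rpph1, the RNA of ribonuclease P and the most abundant gene named here, was at 29760.0 to 33920.0 and at 44560.0 to 52510.0 (0.66, SE 0.12, adjusted p = 0.0387), and its difference was −0.00 after quantile normalization.

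Cytoskeletal, RNA-binding and chromatin genes gave many of the small falls at high expression, and most of these are long genes. Of 51 actin, myosin and membrane-cytoskeleton genes, a list chosen after the values were seen, 12 fell and 0 rose, and 5 fell with the length trend removed. Lsp1, an actin-binding protein of leukocytes, was at 51.4, 57.1 and 52.6 RPKM with vehicle and 30.4, 28.4 and 24.6 with MCP (log2 difference −0.93, SE 0.11, adjusted p = 0.0146) and kept its call (adjusted p = 0.0201). Vim, vimentin, went from 241, 240.2 and 231 to 176, 153 and 170.1 (−0.51, SE 0.07, adjusted p = 0.0247) and kept it too (adjusted p = 0.0375). Fmnl1, a formin of blood cells, was at 45.3, 43.4 and 45.7 and at 24.8, 24.7 and 25.2 (−0.82, SE 0.09, adjusted p = 0.0114) and kept it (adjusted p = 0.0284). Myh9, non-muscle myosin, fell from 278, 288 and 293 to 211, 204 and 193 (−0.50, SE 0.06, adjusted p = 0.0200) but not with the trend removed (−0.20, adjusted p = 0.14).

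The 44 tested hnRNP genes, which package and splice pre-mRNA, were all lower, 3 fell, and their median of −0.23 was 0.00 with the length trend removed. Hnrnpul1 was at 299, 319 and 309 RPKM and at 209.6, 178 and 188 (−0.69, SE 0.08, adjusted p = 0.0136) and kept its call (−0.47, adjusted p = 0.0283), while Mbnl1, a splicing regulator, went from 333, 345 and 327 to 254, 253 and 248 (−0.41, SE 0.06, adjusted p = 0.0239) and did not (−0.15, adjusted p = 0.230). Sin3b, a scaffold of histone deacetylases, was at 70.7, 67.8 and 75.7 and at 32.7, 23.1 and 37.1 (−1.20, SE 0.17, adjusted p = 0.0238) and kept its call (adjusted p = 0.0421). Chd4 and Nsd1, chromatin regulators with long transcripts, fell by 0.34 and 0.46 on the log2 scale, and with the trend removed their differences were −0.06 and −0.10. Of 31 PI3K, AKT and FOXO genes 3 fell (Pik3cg, Pik3cd and Klf6), of 55 RAS-MAPK genes 2 (Dusp1 and Ptpn11), and 0 rose in either list. With the length trend removed 0 genes of the PI3K list passed (adjusted p = 0.164 for Pik3cd and 0.157 for Klf6), and Ptpn11 lost its call (adjusted p = 0.267). Pik3cg, a kinase subunit used by G protein-coupled receptors, was at 16.1 to 17.6 and at 8.29 to 9.76 (−0.81, adjusted p = 0.0387, and 0.122 with the trend removed).

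**Figure D5:**
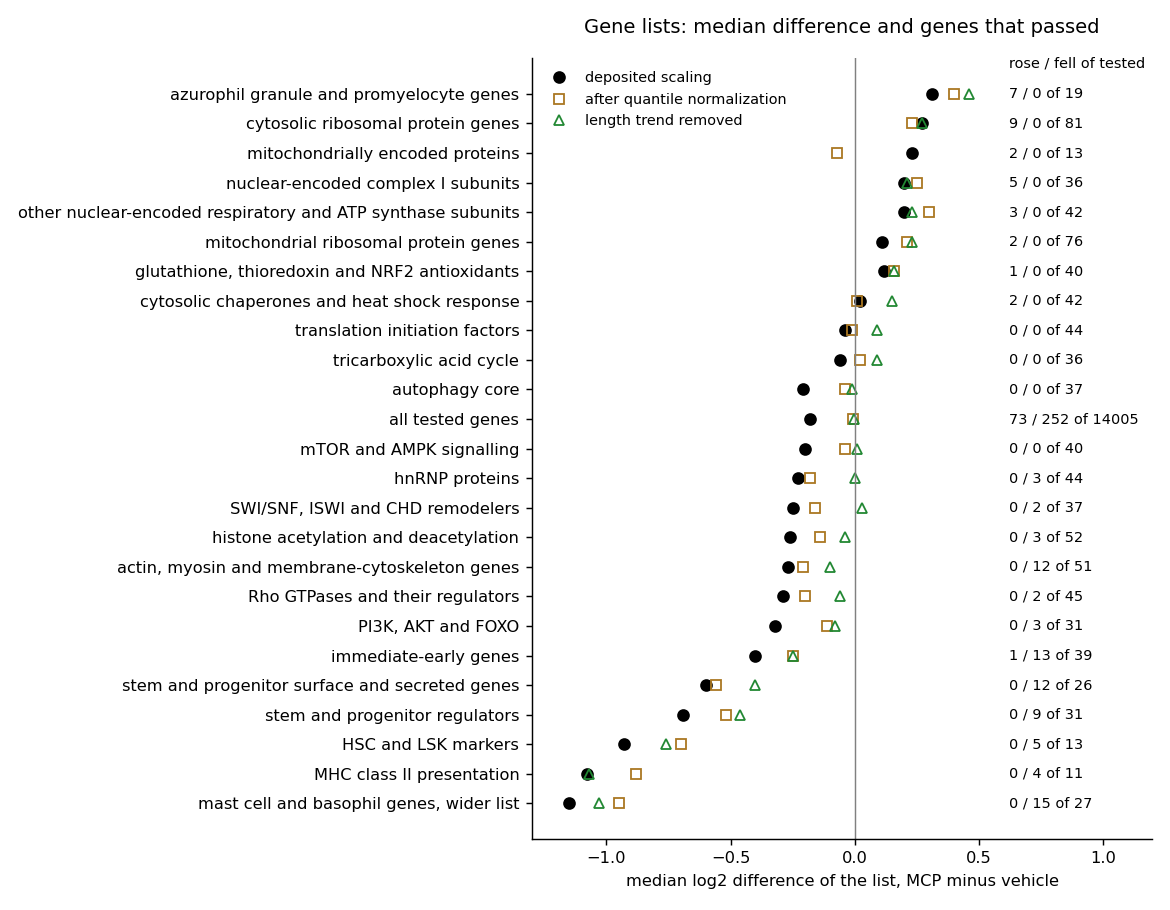
Median log2 difference (MCP minus vehicle) of the tested genes of 24 lists and of all tested genes, as deposited (circles), after quantile normalization (squares) and with the length trend removed (triangles, not possible for mitochondrially encoded genes), with the number that rose and fell at the right. Granule, ribosomal and respiratory lists lie above 0 as deposited, and stem cell, MHC class II and mast cell lists lie lowest.

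Transcripts of dopamine receptors, which the drug blocks, were near absent. Of 17 genes for dopamine, serotonin and other receptors, 11 were listed at 0.001 in all 6 libraries, among them Drd2, Drd3, Htr3a and Htr4. In every library 14 stayed below 1 RPKM. The list is wider than the targets of the drug: it holds Prlr and Chrm1, both at 0.001 throughout, and Chrm3. The tested members were Htr2a and Htr2b, serotonin receptors, and neither passed (log2 differences −0.39, SE 0.40, and −0.20, SE 0.38). Of 14 genes that make, move or degrade catecholamines, Slc18a2 fell, as given above. Maoa, a monoamine oxidase, was lower in each MCP library (17.4 to 18.8 against 11.3 to 15.6) and did not pass (adjusted p = 0.165). Low RNA does not show that a receptor protein is absent.

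Of all tested genes 2.32% passed, and at that share a list of 26 to 44 genes can hold 0 calls without standing out. Of the 79 lists of pathways and markers, 31 held no gene that passed. They included autophagy (37 tested, median −0.21), the tricarboxylic acid cycle (36, −0.06), fatty acid oxidation (26, −0.03), nucleotide synthesis (34, −0.10), mTOR and AMPK signalling (40, −0.20), hypoxia response (27, −0.31), apoptosis execution (36, −0.22), Polycomb (35, −0.24), Mediator (32, −0.09) and translation initiation factors (44, −0.04). As deposited, the tricarboxylic acid cycle, fatty acid oxidation, nucleotide synthesis, Mediator and initiation factors lay above the median of −0.18 over all tested genes. The other lists named here lay below it. After quantile normalization initiation factors were at −0.01, against −0.005 over all tested genes, fatty acid oxidation at 0.08 and the hypoxia list at −0.12. With the length trend removed these 3 lists were at 0.09, 0.11 and −0.06, against −0.0009. In simulated data the model recovered 3.7% of genes changed by 0.5 on the log2 scale, 47.1% at 1 and 76.1% at 2. The changed genes (81, 70 and 46 of 13590) were drawn from all levels, and both groups had the same spread. These rates therefore cannot be applied to the lists, where a small change could still have been missed.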

How the data were processed

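Total RNA of sorted marrow cells went into SMART-Seq v4 libraries for low input, per the labels. The deposited values were taken as RPKM, inferred from the values; the labels name no unit, and other units per length cannot be told apart. The lowest value, 0.001, stands for no signal. Per the submitters' processing notes the build was GRCm38 (mm10). Not given in the sources used here were the tools for alignment and counting, the gene models and the use of strand.

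Values were analysed as log2(value + 1), so differences of low genes are understated, with limma 3.58.1 in R 4.3.3 (intensity trend, 1 mean per group, two-sided, Benjamini-Hochberg over all tested genes, threshold 0.05). Tested were genes at 1 or more in at least 2 of the 6 libraries, whatever their group. Without counts, depth was estimated from the spacing of low values; 36.5% to 59.7% of these lay within 0.1 of a whole multiple, so the estimates are rough. The 10 libraries of the other experiment were not used here.

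The genes and lists were chosen with earlier results of these data known: 79 lists of pathways and markers before their values were computed here and 12 after the values were seen. Of the list entries 2880 matched by symbol, 50 by synonym, and 23 were not listed. Genes were named among those that passed, had groups apart and reached 5 in a whole group. Each way these were the 6 largest differences and the 8 highest means. The 6 smallest p below a log2 difference of 1 at a mean of at least 20 were also named, with up to 4 members per list. Cd93 and the tested members of the dopamine and serotonin receptor list were named whatever their result. Further members of the described lists were chosen after their values were seen. Features sharing a name (90) were kept apart and names turned into dates (27) matched no list. Single-gene results of a few genes are not reported here. Positions and exonic lengths are from GENCODE M21, with lengths for 88.8% of tested genes. The model was tested on simulated data. Alternatives were quantile normalization, other pseudocounts and filters, the replicate block, library weights and leaving out each library. The length correction and equal protein-coding totals were added after the data were seen.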

Additional observations from a re-analysis of the deposited data

How the results depend on the processing

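Against 325 calls (73 rose, 252 fell), quantile normalization gave 109 rises and 151 falls, the length trend removed 205 calls (97 falls), library weights 43 rises, no filter 33 rises, and equal protein-coding totals 134 rises. Leaving out 1 library gave 25 to 406 calls, 2 to 93 rises and 22 to 313 falls, with the low counts without a vehicle library. With the replicate block 39 genes passed (7 rose, 32 fell). Nothing in the labels says that a replicate number pairs mice. Same-numbered libraries had residual correlations over genes of 0.008, 0.014 and −0.008, which cannot exclude such a pairing. Rpph1 turned to −0.00 and ATP8 to −0.11 after quantile normalization. Of the 127 named genes 124 passed, and 2 of these changed sign under any setting tried. Htr2b, which did not pass, went from −0.20 to 0.10 after quantile normalization. Of the 124 that passed, Angpt1, Cd200r3, Cma1, Cpa3, Elane and Fos passed whichever library was left out, and the highest adjusted p of the others lay between 0.0516 and 0.229. With the length trend removed 71 named genes kept their side of the threshold and 49 lost it. A pseudocount of 0.1 gave 67 rises and 214 falls, 1 of 5 gave 73 and 249, and a minimum mean of 5 gave 81 and 227, each within 1.5 times the reported counts. The causes of the changed counts were not tested. Between libraries, Pearson's r over genes (not independent replicates) was 0.979 to 0.980 within vehicle and 0.933 to 0.943 within MCP, and 0.943 to 0.956 between the groups. The shallower MCP libraries limit what can be said of genes near the lowest value.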

Other observations

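Some well-expressed single genes changed as well. Tomm20, a receptor of the mitochondrial import pore, was at 96.3, 60.2 and 99.7 RPKM with vehicle and 27.1, 24.3 and 21.1 with MCP (log2 difference −1.75, SE 0.20, limma adjusted p = 0.0143), while the 35 import and chaperone genes it belongs to had a median of 0.01 and no other member passed. Erc1, a scaffold of the cell cortex that is in no list, was at 24.0, 24.4 and 29.0 and at 6.84, 8.01 and 8.56 (−1.60, SE 0.15, adjusted p = 0.00683). Commd6 rose from 13, 14.2 and 20.2 to 33.0, 37.8 and 33.2 (1.11, SE 0.17, adjusted p = 0.0301). All 3 kept their calls with the length trend removed. Among GIMAP and related immune GTPases, Gimap1, Gimap3 and Gimap6 fell of 22 tested, 21 were lower, and Gimap6 lost its call with the length trend removed (adjusted p = 0.0654). The alpha and beta globin genes Hba-a1 and Hbb-bs, which have near-identical copies, fell. Hba-a1 lay at 57.6 to 66.8 RPKM with vehicle and 35.0 to 40.4 with MCP, and Hbb-bs at 70.1 to 75.3 and 46.5 to 54.0 (adjusted p = 0.0251 and 0.0455), while the 10 erythroid markers summed to 512 to 565 and 486 to 514.

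Short noncoding features moved in both directions. The transfer RNA features n-Th5, n-Tk13, n-Tg25 and Trnad-guc, of gene families with many copies, rose by 0.91 to 1.29 on the log2 scale, and Rn4.5s, a small repetitive RNA, fell by 0.94 (adjusted p = 0.0132). Of the 199 described genes that fell, 18 were listed at 0.001 in every MCP library, 12 of them microRNA hairpins and 5 immunoglobulin segments such as Igkc (47.4, 43.0 and 46.9 RPKM with vehicle, adjusted p = 5.91e-05). The MCP libraries were the shallower ones, and the part of depth in these falls was not tested.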
